A study of Homo sapiens with 6 samples.

Results

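The insulin-like growth factor (IGF) binding proteins, the IGF receptors, the ligand IGF2 and the IGFBP-cleaving protease HTRA1 were followed in the transcriptomes of WT and PARP3-/- LN229 cells. IGFBP2 and HTRA1 RNA were low in every PARP3-/- library, IGFBP5 RNA was higher, and the RNA of both receptors, IGF1R and IGF2R, stayed close to the WT level. The set held 10 genes (IGFBP2, IGFBP3, IGFBP4, IGFBP5, IGFBP6, IGFBP7, IGF1R, IGF2R, IGF2 and HTRA1) of the 33841 genes listed, and 9 of them had enough counts to be among the 17144 genes tested. The set was chosen by gene family with the measured values of WT and PARP3-/- already known, so the differences of its genes between the genotypes are given as a description, with standard errors but no p-values.

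LN229 is a human glioblastoma cell line. WT cells carried intact PARP3 (PARP3+/+), and PARP3-/- cells had been disrupted in PARP3, a nuclear ADP-ribosyltransferase, with a Cas9 nickase and grown from single sorted cells. The number of clones behind the PARP3-/- libraries is not given in the sources used here, so a difference between genotypes cannot be told apart from a difference between a clone and its parental line. Both genotypes were sampled as proliferating cultures, without further treatment, in 3 replicates each.

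The IGF axis works mostly outside the cell. The ligands IGF1 and IGF2 activate the tyrosine kinase receptor IGF1R, while IGF2R binds IGF2 without such a kinase, removes it and carries lysosomal enzymes that bear mannose 6-phosphate. IGF binding proteins hold the ligands with high affinity, either withholding or delivering them, and also act through integrins, proteoglycans and matrix proteins, and proteases such as HTRA1 and the pappalysins cut them and free the ligand. In glioma, IGFBP2 is known as a secreted protein linked to invasion, and HTRA1 as a secreted serine protease that also cuts matrix proteins.

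The promoters of the 3 genes with non-overlapping libraries, IGFBP2, HTRA1 and IGFBP5, are shown because the results turn on them. Each run is the 250 bases upstream of the transcription start, 5′ to 3′ on the strand of the gene, taken from RefSeq on GRCh38.p14. For IGFBP2, 3 such windows were at hand, and only the 1 at the start of the canonical Ensembl transcript is described. Capitals mark the GC box, GGGCGG or its reverse complement CCGCCC, a motif of Sp1-type factors.

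IGFBP2: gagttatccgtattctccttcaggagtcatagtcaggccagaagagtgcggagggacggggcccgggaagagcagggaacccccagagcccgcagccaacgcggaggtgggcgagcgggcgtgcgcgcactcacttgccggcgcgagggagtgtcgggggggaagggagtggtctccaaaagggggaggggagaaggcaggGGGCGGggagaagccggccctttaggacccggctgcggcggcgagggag
HTRA1: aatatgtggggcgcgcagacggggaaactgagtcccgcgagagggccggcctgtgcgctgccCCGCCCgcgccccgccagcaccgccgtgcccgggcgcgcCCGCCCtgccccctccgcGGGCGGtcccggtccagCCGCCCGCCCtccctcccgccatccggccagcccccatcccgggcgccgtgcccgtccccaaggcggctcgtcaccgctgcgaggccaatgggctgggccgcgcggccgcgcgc
IGFBP5: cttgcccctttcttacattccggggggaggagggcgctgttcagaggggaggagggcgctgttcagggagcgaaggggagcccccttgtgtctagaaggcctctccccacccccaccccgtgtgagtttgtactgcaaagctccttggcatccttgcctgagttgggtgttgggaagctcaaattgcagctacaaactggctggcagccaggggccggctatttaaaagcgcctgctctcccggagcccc

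The window of IGFBP2 lay on the plus strand at chr2:216633170-216633419, that of HTRA1 on the plus strand at chr10:122461303-122461552 and that of IGFBP5 on the minus strand at chr2:216695550-216695799. Part of the HTRA1 window and part of the IGFBP5 window are also annotated as exons of antisense long noncoding RNAs (ENSG00000285955 and DIRC3-AS1). The HTRA1 window held 5 GC boxes, of which 2 overlap, and was 81.2% G or C, and the IGFBP2 window held 1 GC box at 69.2%. The IGFBP5 window held none, at 61.2%. The observed over expected CpG ratio was 0.969 for HTRA1, 0.811 for IGFBP2 and 0.342 for IGFBP5, beside a median of 0.558 over the 35116 promoter windows of this length, of which 42.6% held a GC box. HTRA1 and IGFBP2, the genes with low RNA in PARP3-/- cells, thus had CpG-rich windows and IGFBP5 a CpG-poor one, but so did genes of the set whose libraries overlapped. IGF1R had the highest CpG ratio, 1.18 with 2 GC boxes, and IGF2R had 6 GC boxes, while IGFBP6 was at 0.385. Windows were at hand for 8 of the 10 genes, none for IGF2 or IGFBP7.

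Library totals ran from 29692065 to 46010369 counts, and 3 counts corresponded to between 0.0673 and 0.0996 CPM (counts scaled to a library size corrected by TMM). PARP3 itself had 34.9, 22.4 and 24.3 CPM in WT and 19.1, 22.5 and 19.5 CPM in PARP3-/- cells. The libraries of the genotypes overlapped, so total PARP3 RNA did not check the labels, and transcripts of a disrupted gene can still be counted. The glial and glioblastoma markers VIM, NES, CD44, SOX2, OLIG2 and S100B were all expressed, with GFAP at 0.253 CPM in WT and 0.125 in PARP3-/- cells. S100B was lower in PARP3-/- cells (log2 fold change −1.06, adjusted p = 0.0256 in edgeR). With DESeq2, 2 of the 6 glial markers tested were called lower, S100B and OLIG2 (−0.53 in edgeR), beside 871 of all genes. With the replicate block 4 were lower, SOX2 (−0.32) and CD44 (−0.25) being added, and none was called higher. Over all tested genes the block called 12.5% lower and 11.8% higher. The epithelial keratin KRT8 was also lower in edgeR (−0.74, adjusted p = 0.0194). The other epithelial markers, EPCAM and CDH1, did not exceed 3 counts in any library, and the epithelial list of 3 summed to at most 16.0 CPM in WT and to between 8.17 and 9.76 in PARP3-/-. The part of these marker differences in the results was not tested. Immune and endothelial lists summed to less than 1 CPM in every library, with a range of 0.238 to 0.597 for the 3 immune markers listed in PARP3-/- cells and 0.224 to 0.431 for the 3 endothelial markers. The 3 neuronal markers summed to between 55.5 and 118 CPM in WT and between 61.6 and 95.8 in PARP3-/- cells. SYT1 and SNAP25 were expressed among them, and RBFOX3 was nearly without reads. In such bulk RNA, fewer cells with a transcript and less transcript per cell cannot be told apart.

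The ligand IGF2, the growth factor held by the binding proteins, was nearly without reads. It had 0, 1 and 0 counts in WT and 0, 1 and 0 in PARP3-/- cells, below 3 counts in each library. No fold change was taken for it. In GENCODE, other genes share the strand and part of the canonical exons of IGF2, INS-IGF2 with 17.9% of its bases and the gene ENSG00000284779 with 38.4%. The counting used drops reads on shared bases, so the IGF2 count may cover only part of the transcript. Whether the annotation used for counting held the same overlaps was not checked. The other ligand gene listed, IGF1, had at most 2 counts in any library. Neither ligand was thus detected above 3 counts in these cells at this depth.

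IGFBP2, a binding protein with an integrin-binding motif, showed the greatest difference of the set. It had 316, 417 and 419 counts in WT libraries (8.65, 9.94 and 10.2 CPM) and 1, 2 and 2 counts in PARP3-/- libraries. Every PARP3-/- library lay below 3 counts and every WT library far above. The summed counts, scaled for library size, were 217-fold higher in WT than in PARP3-/- cells, with an exact 95% interval of 92.7 to 669 that covers counting error only. The gene lies on the plus strand of chromosome 2, from 216632828 to 216664436 (GRCh38), and its canonical transcript has 4 exons.

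IGFBP5, a binding protein that also attaches to extracellular matrix, is the chromosomal neighbour of IGFBP2. It starts 7.67 kb beyond the end of IGFBP2 and is read from the other strand, from 216672105 to 216695525. It had 30.0, 26.5 and 34.3 CPM in WT and 48.3, 43.0 and 48.4 CPM in PARP3-/- cells. The lowest PARP3-/- library was thus above the highest WT library, in the opposite direction to IGFBP2. The log2 fold change was 0.62 (SE 0.11), or 1.54 times the WT mean. Within replicate numbers 1, 2 and 3 the ratio of PARP3-/- to WT was 1.61, 1.62 and 1.41. The call of this gene at an adjusted p under 0.05 was less stable than the direction, since it held without WT replicate 3 and was lost when any of the other 5 libraries was left out, at log2 fold changes of 0.53 to 0.68.

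**Figure D1:**
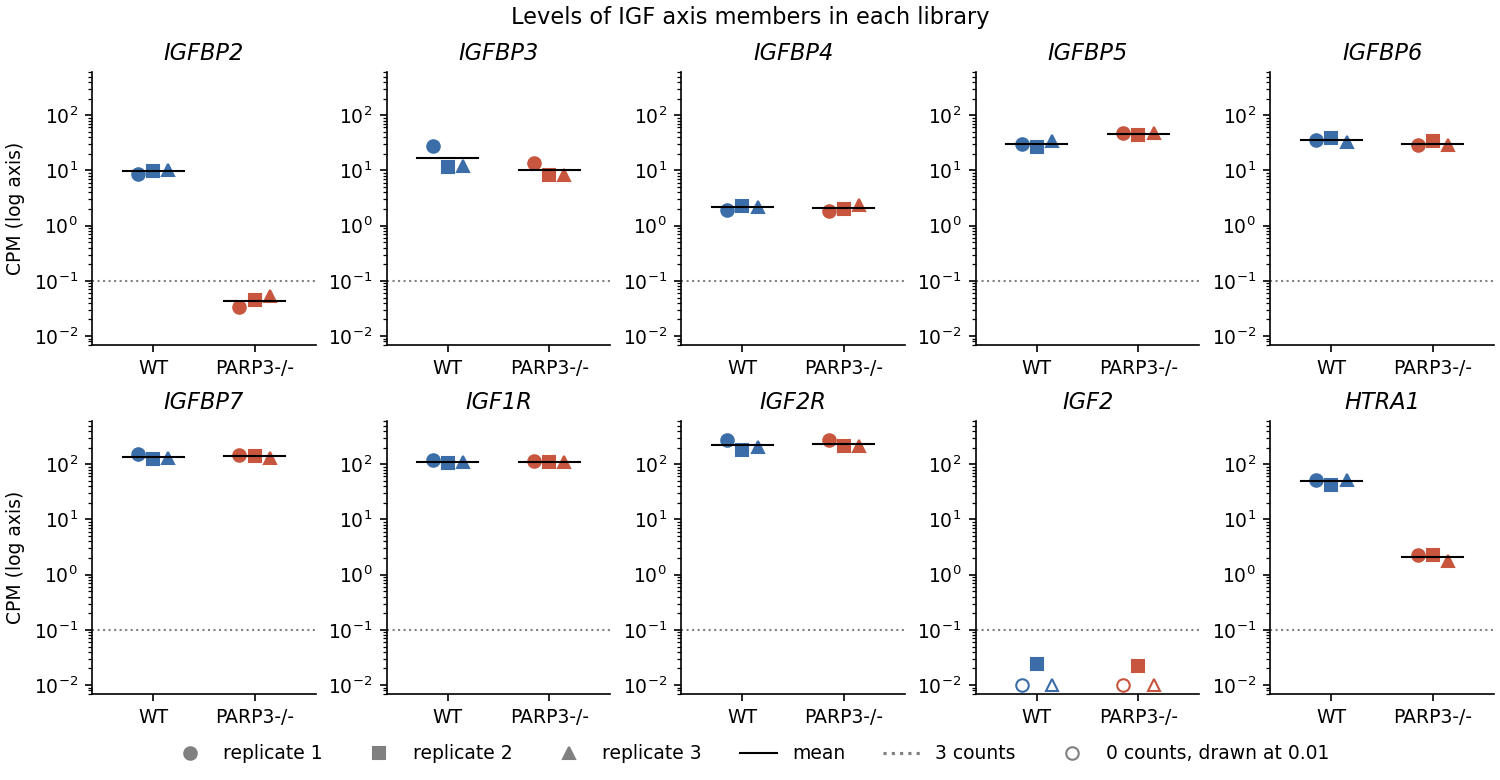
Level of each gene in each library, in CPM on a logarithmic axis, for WT (blue) and PARP3-/- (red). Symbols mark replicate numbers, black lines the means (not drawn for IGF2), the dotted line the highest level that 3 counts correspond to, and open symbols libraries with 0 counts, drawn at 0.01. IGFBP2 falls below the dotted line in all 3 PARP3-/- libraries, HTRA1 falls to about 2 CPM, and IGF2 stays below it in all 6 libraries.

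IGFBP3, the main carrier of IGFs in blood, was spread widely within WT. It had 27.5, 11.7 and 12.1 CPM in WT and 13.9, 8.37 and 8.26 CPM in PARP3-/- cells. PARP3-/- replicate 1 lay above WT replicates 2 and 3, so the ranges of the genotypes met. Its log2 fold change of −0.75 (SE 0.38) did not pass the call. Replicate 1 was the highest library in both genotypes, and within replicate numbers the PARP3-/- to WT ratio was 0.505, 0.714 and 0.680. With the replicate number as a block the estimate was −0.69 (SE 0.10) and IGFBP3 was called lower, but without WT replicate 1 the unblocked log2 fold change was −0.24.

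IGFBP6, which prefers IGF2 over IGF1, had 35.6, 38.5 and 32.1 CPM in WT and 29.1, 33.6 and 29.0 CPM in PARP3-/- cells. PARP3-/- replicate 2 fell within the WT range. Its log2 fold change was −0.21 (SE 0.10), a difference called only with the replicate block (−0.21, SE 0.06). The ratio within replicate numbers was 0.819, 0.873 and 0.902.

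IGFBP7, a matrix-associated protein that binds IGFs weakly, was the most abundant of the binding proteins. It had 154, 124 and 132 CPM in WT and 149, 139 and 131 CPM in PARP3-/- cells, with overlapping libraries and a log2 fold change of 0.03 (SE 0.10). On the opposite strand the gene POLR2B shares 18.2% of the canonical exon bases of IGFBP7.

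IGFBP4, the classical substrate of the protease PAPPA, was the least abundant binding protein of the set in WT cells. It had 1.94, 2.31 and 2.15 CPM in WT and 1.86, 2.04 and 2.33 CPM in PARP3-/- cells. These ranges overlapped and the log2 fold change was −0.04 (SE 0.16). Together, the binding proteins held 1 gene that lost nearly all its RNA, 1 that gained, and 4 whose libraries overlapped.

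IGF1R, the signalling receptor, had 120, 106 and 109 CPM in WT and 113, 110 and 108 CPM in PARP3-/- cells. The PARP3-/- libraries lay inside the WT range, with a log2 fold change of −0.02 (SE 0.08). IGF2R, the clearance receptor, had 274, 180 and 202 CPM in WT and 280, 212 and 211 CPM in PARP3-/- cells. Its libraries overlapped too, at 0.10 (SE 0.19), and in both genotypes replicate 1 was the highest. Per kilobase of transcript, the level of IGF2R over that of IGF1R was 1.69 ± 0.27 in WT and 1.84 ± 0.27 in PARP3-/- cells (SD, n = 3).

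HTRA1, the secreted serine protease, had 51.8, 42.9 and 51.9 CPM in WT and 2.22, 2.27 and 1.77 CPM in PARP3-/- cells. All PARP3-/- libraries lay far below all WT libraries but stayed above 3 counts, with 67, 101 and 67 counts. The log2 fold change was −4.55 (SE 0.14), which left 4.27% of the WT mean. Within replicate numbers the ratio of PARP3-/- to WT was 0.0429, 0.0529 and 0.0342. The gene spans 122461525 to 122514908 on the plus strand of chromosome 10, with 9 exons in the canonical transcript.

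Of the 9 genes tested, 2 were called lower in PARP3-/- cells (IGFBP2 and HTRA1) and 1 higher (IGFBP5) at an adjusted p under 0.05 in edgeR. Over all tested genes 3.33% were lower, 1.36% higher and 4.7% called in either direction. The genotypes did not overlap in 3 of the 9, beside 22.8% of all tested genes. With the replicate block 4 were lower and 1 higher, beside 12.5% lower, 11.8% higher and 24.3% in either direction over all tested genes. Since the set was selected on this contrast, nothing is read from these shares.

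**Figure D2:**
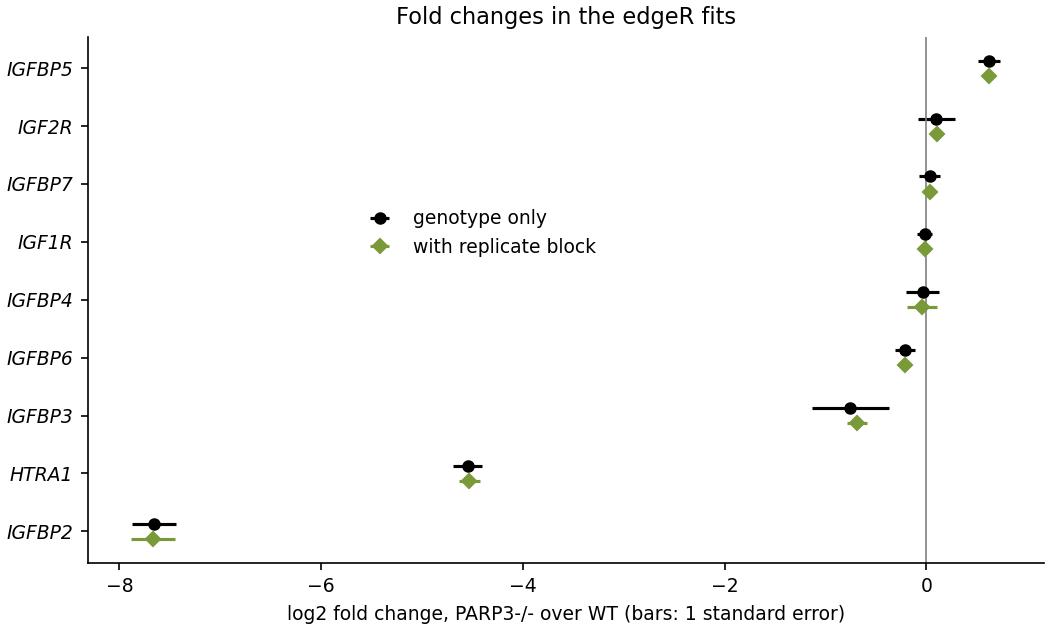
Log2 fold change of PARP3-/- over WT for the 9 tested genes in the edgeR fit with genotype only (black circles) and with the replicate number as a block (green diamonds). Bars are 1 standard error, and the value of IGFBP2 is a fitted one that rests on 5 counts in PARP3-/- cells. Blocking leaves the estimates nearly in place and shortens the bar of IGFBP3 from 0.38 to 0.10.

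Levels of different genes were compared as CPM per kilobase of the Ensembl canonical transcript. In WT cells the order was IGFBP7 at 95.7, IGFBP6 at 37.4, HTRA1 at 23.4, IGF2R at 15.5, IGF1R at 9.14, IGFBP2 at 6.79, IGFBP3 at 6.55, IGFBP5 at 4.85 and IGFBP4 at 0.968 CPM per kb, with IGF2 last. Between neighbours in that order, the libraries of IGFBP2 and IGFBP3 overlapped, as did those of IGFBP3 and IGFBP5, and all other neighbours were separate. In PARP3-/- cells IGFBP7 (97.8), IGFBP6 (32.3), IGF2R (16.7) and IGF1R (9.02) led, followed by IGFBP5 (7.47), IGFBP3 (3.89), HTRA1 (0.999), IGFBP4 (0.942) and IGFBP2 (0.0309 CPM per kb). HTRA1 moved from the third place to the seventh, where its libraries overlapped those of IGFBP4, and IGFBP2 moved from the sixth to the ninth.

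The summed level of the binding proteins was 152 ± 13.5 CPM per kb in WT and 142 ± 7.19 in PARP3-/- cells (SD, n = 3), with overlapping libraries. IGFBP7 made up 62.8 ± 2.26% of that sum in WT and 68.6 ± 1.22% in PARP3-/- cells, and IGFBP6 24.7 ± 3.07% and 22.7 ± 2.02%. IGFBP2 fell from 4.51 ± 0.75% to 0.0219 ± 0.0060%, and IGFBP5 went from 3.21 ± 0.52% to 5.25 ± 0.49%. These shares and the order of levels depend on the transcript length used. With the median transcript length of the deposited table, an alternative chosen after seeing the data, IGFBP7 made up 49.0% in WT and 50.1% in PARP3-/- cells. IGFBP5 then came second in place of IGFBP6, at 19.1 ± 2.81% in WT and 29.2 ± 2.03% in PARP3-/- cells, while IGFBP2 was at 5.16 ± 0.90% and 0.0234 ± 0.0063%.

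**Figure D3:**
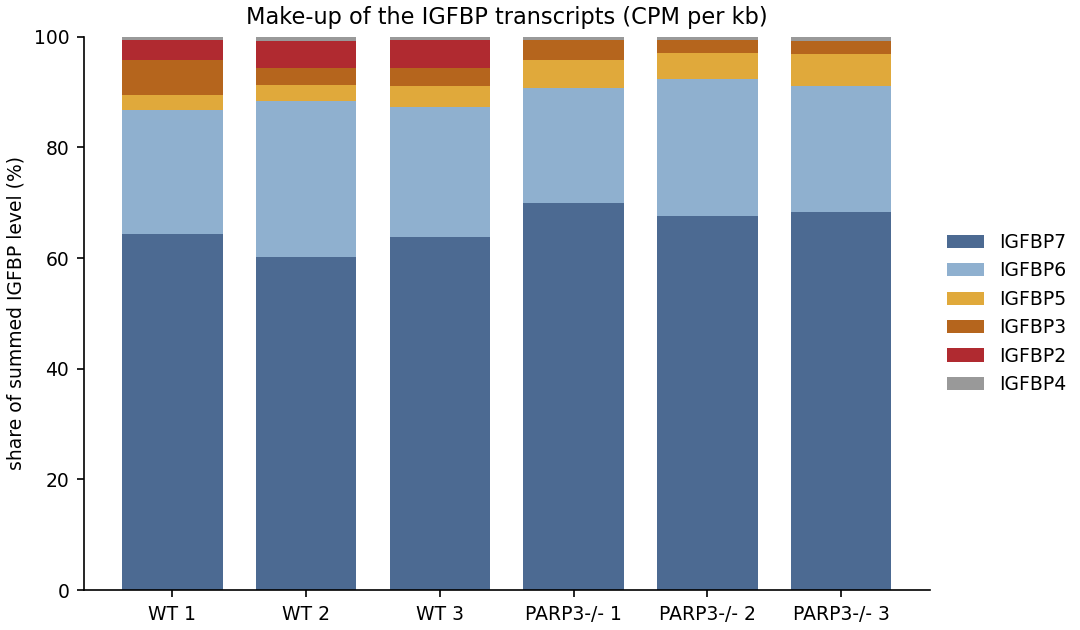
Share of each binding protein in the summed level of the 6 binding proteins (percent of CPM per kb of canonical transcript) in each library. IGFBP7 and IGFBP6 take up most of each bar, the IGFBP2 segment is visible in the 3 WT bars only, and the IGFBP5 segment averages 3.21% in WT and 5.25% in PARP3-/- cells.

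The choice of genes had not used the replicate number, and this contrast was tested. In edgeR, 5 of the 9 genes differed between libraries of different replicate number within a genotype, beside 35.3% of all tested genes. IGFBP3 had the smallest adjusted p of the set (0.000146), followed by IGF2R (adjusted p = 0.000468), IGFBP5 (0.0352), IGFBP7 (0.0441) and IGFBP6 (0.0454). Replicate 1 exceeded the mean of replicates 2 and 3 by 2.30 times in WT and 1.67 times in PARP3-/- cells for IGFBP3 and by 1.43 and 1.32 times for IGF2R. IGFBP2, IGFBP4, IGF1R and HTRA1 did not pass (adjusted p = 0.430, 0.580, 0.297 and 0.338). With the likelihood ratio test of DESeq2, 2 of the 9 passed. For IGFBP3 the spread over WT replicates (SD 8.97 CPM) was wider than the gap between the means of WT, 17.1 CPM, and PARP3-/- cells, 10.2 CPM. IGF1R was the steadiest gene, with a coefficient of variation of 6.34% in WT and 2.33% in PARP3-/- cells.

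Other genes of the axis were taken from a list of 97, of which 93 were in the table and 79 tested. The list was drawn with earlier results of these data known, so its shares and adjusted p-values serve as description only. In edgeR 4 were lower in PARP3-/- cells (ESM1, H19, ACAN and DCN) and 1 higher (TGFB1), 6.33% of those tested beside 4.7% of all genes, and the median log2 fold change was 0.04, beside −0.01 over all tested genes. With the replicate block 16 were lower and 21 higher, beside 24.3% of all genes called in either direction.

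ESM1, a secreted proteoglycan with an IGFBP-type domain, had 0.849, 1.26 and 1.05 CPM in WT and 0.133, 0.224 and 0.212 CPM in PARP3-/- cells (log2 fold change −2.43, SE 0.29, adjusted p = 0.00499 in edgeR). It was the 1 IGFBP-related protein called of 7 tested, beside 4.7% of all tested genes. The abundant CRIM1, CTGF and CYR61 had log2 fold changes of 0.21, 0.28 and 0.46 that did not pass (adjusted p = 0.719, 0.798 and 0.391). With the replicate block, all 3 of them were called higher, and 2 of the 7 were lower, beside 24.3% of all tested genes called. IGFBP1, the family member outside the set, had at most 6 counts in any library and was not tested. IGFALS, which joins IGFBP3 or IGFBP5 in ternary complexes in blood, had at most 1.

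INSR, the insulin receptor, can pair with IGF1R in hybrid receptors. It had 1476, 1668 and 1683 counts in WT and 1003, 1432 and 1235 in PARP3-/- cells, a log2 fold change of −0.30 (SE 0.07, adjusted p = 0.0505 in edgeR, 0.0118 in DESeq2 and 0.00181 with the replicate block). Scaled for library size and length, IGF1R stood at 2.29, 2.07 and 2.06 times INSR in WT and at 2.63, 2.64 and 2.56 times in PARP3-/- cells. These ratios did not overlap.

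The other protease genes of the list, with the HTRA1 relatives HTRA2, HTRA3 and HTRA4 among them, ranged from abundant to nearly absent. Whether each of them cuts binding proteins was not examined. HTRA2 (0.08, adjusted p = 0.731), ADAM12 (0.06, adjusted p = 0.971), PAPPA2 (0.68, adjusted p = 0.253) and PAPPA (−0.29, adjusted p = 0.719) did not pass on the log2 scale, while HTRA3 and HTRA4 had at most 3 counts in a library. ADAM28, too low to be tested, had 7, 6 and 6 counts in WT and 0, 2 and 0 in PARP3-/- cells, without overlap. Its summed counts, scaled for library size, were 8.94-fold higher in WT, with an exact 95% interval of 2.16 to 79.2 that covers counting error only. The pappalysin inhibitors STC2 and STC1 were at 0.15 and 0.44 (adjusted p = 0.875 and 0.620). With the replicate block PAPPA was called lower, and PAPPA2 and STC1 higher, beside 24.3% of all tested genes called. Of the proteases tested, HTRA1 was the one called without the block, and whether its change differed from that of the others was not tested.

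Among 8 tested proteins that HTRA1 is known to cut or to act on, 2 were lower and 1 higher, beside 4.7% of all tested genes called in either direction. ACAN (aggrecan, a large matrix proteoglycan) had 194, 122 and 181 counts in WT. All PARP3-/- libraries had 0 counts, which put ACAN at least 51.3-fold lower when set against 3 counts per library (adjusted p = 0.00254 in edgeR). The study had already selected ACAN as repressed in its PARP3 knockout LN229 cells, so its call here is no independent evidence. DCN (decorin, a small matrix proteoglycan) had 11.7, 9.70 and 12.2 CPM in WT and 6.17, 5.07 and 4.95 CPM in PARP3-/- cells (log2 fold change −1.05, SE 0.14, adjusted p = 0.00919). TGFB1, the growth factor whose signalling HTRA1 restrains, had 20.4, 21.2 and 21.2 CPM in WT and 26.5, 33.7 and 31.6 CPM in PARP3-/- cells (0.55, SE 0.10, adjusted p = 0.0318). The genotypes did not overlap in any of the 3, and in 5 of the 8 tested, beside 22.8% of all tested genes. FN1 (fibronectin) and EFEMP1, the most abundant of this group, were at 0.62 and 0.03 (adjusted p = 0.118 and 0.982). BGN and LTBP1 were at −0.16 and 0.21 (adjusted p = 0.956 and 0.564 in edgeR). The libraries of the genotypes overlapped in EFEMP1, BGN and LTBP1. FN1 was called higher in DESeq2 (adjusted p = 0.0114) and with the replicate block, and CLU (clusterin, a chaperone) at 0.44 with the block, and in both the libraries of the genotypes did not overlap. With the block 2 of this group were lower and 3 higher, beside 24.3% of all tested genes called in either direction. The call of DCN was lost without WT replicate 3 (adjusted p = 0.0556), PARP3-/- replicate 2 (0.0574) or PARP3-/- replicate 3 (0.0551), that of TGFB1 without any library other than PARP3-/- replicate 1 (adjusted p = 0.0543 to 0.155).

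Partners of the binding proteins at the cell surface gave no call among 7 tested, and 3 had an unadjusted p under 0.05. The integrin subunits ITGB1 and ITGAV, the most abundant of them, were at log2 fold changes of 0.31 and 0.27 (adjusted p = 0.108 and 0.212), and ITGB3 was at 0.16 (adjusted p = 0.895). The IGFBP2-binding phosphatase PTPRZ1 was at −0.36 (adjusted p = 0.785) and the IGFBP3 receptor TMEM219 at 0.24 (adjusted p = 0.165). With DESeq2 1 of the 7 was called higher, beside 475 of all genes. With the replicate block 1 was lower and 3 were higher, beside 24.3% of all tested genes called in either direction.

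Downstream of the receptors, no gene of the adaptor group (12 tested), the PI3K-AKT arm (18 tested) or the RAS-ERK arm (10 tested) was called in edgeR or DESeq2. At an unadjusted p under 0.05 the counts were 1, 2 and 1, and with the replicate block 5, 5 and 4, beside 24.3% of all tested genes. Median log2 fold changes were 0.04, 0.00 and 0.00. Abundant genes with their log2 fold changes were PTPN11 (0.04), SHC1 (0.06) and GRB10 (−0.07) among the adaptors, AKT1 (0.04) and MTOR (−0.15) in the PI3K-AKT arm, and NRAS (0.04) in the RAS-ERK arm. Genes that sort lysosomal enzymes by the mannose 6-phosphate mark, the other duty of IGF2R, gave no call among 7 tested (1 at an unadjusted p under 0.05, none in DESeq2, and 1 lower and 1 higher with the replicate block). M6PR, the smaller mannose 6-phosphate receptor and the most abundant of them, was at −0.29 (adjusted p = 0.112), with GGA2 at 0.05 (adjusted p = 0.900) and GGA1 at −0.09 (adjusted p = 0.803).

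**Figure D4:**
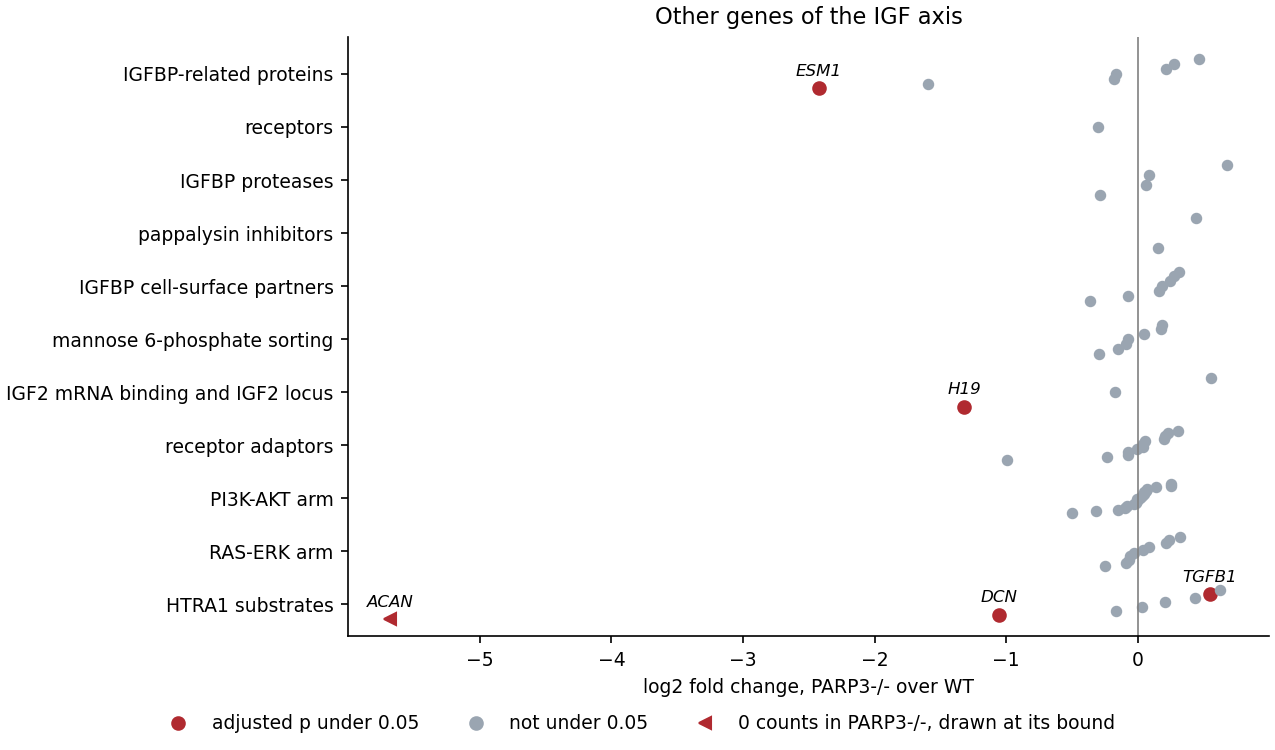
Log2 fold change of PARP3-/- over WT for the 79 tested genes of the axis list, by group. Red points passed an adjusted p under 0.05 in edgeR and are named, and the red triangle marks ACAN, which had 0 counts in PARP3-/- cells and is drawn at its lower bound of 51.3-fold. Most grey points lie within 0.5 of zero.

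H19, a noncoding RNA of the imprinted locus that it shares with IGF2, lies 128 kb from IGF2 on chromosome 11. It had 70.6, 41.7 and 58.3 CPM in WT and 26.6, 20.7 and 21.2 CPM in PARP3-/- cells (log2 fold change −1.32, SE 0.20, adjusted p = 0.0141 in edgeR), without overlap. The call was lost without WT replicate 3 (adjusted p = 0.0740), PARP3-/- replicate 2 (0.0792) or PARP3-/- replicate 3 (0.0758). The IGF2 mRNA-binding protein genes IGF2BP3 and IGF2BP2 were at 0.55 (SE 0.12, adjusted p = 0.0540) and −0.18 (adjusted p = 0.430), and with the replicate block the former was called higher and the latter lower.

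To place the members in their chromosomal surroundings, the 3 nearest tested genes on each side within 1 Mb were examined, 45 genes in all, with the genes of the set themselves left out. H19 was the 1 neighbour called lower (2.22% of the 45, beside 4.7% of all tested genes called in either direction) and none was called higher in edgeR, while 9 had an unadjusted p under 0.05. With DESeq2 3 were lower and none higher, and with the replicate block 8 were lower and 3 higher, a share close to the 24.3% of all tested genes called with the block. RPL37A, 53.6 kb before IGFBP2, was at a log2 fold change of −0.07 (adjusted p = 0.845), and DIRC3, the nearest tested gene beyond IGFBP5, was at 0.31 (adjusted p = 0.838). PLEKHA1, 18.9 kb before HTRA1, was at −0.06 (adjusted p = 0.802) and C10orf88 on its other side at 0.03 (adjusted p = 0.924). Among these neighbours, which leave out set genes such as IGFBP5 beside IGFBP2, none near IGFBP2 or HTRA1 was called in edgeR without the block. With the replicate block SMARCAL1 near IGFBP2 was called higher (log2 fold change 0.18, adjusted p = 0.0378 in edgeR). BTBD16 near HTRA1 was called lower with the block (−0.73, adjusted p = 0.0318). The libraries of the genotypes did not overlap for SMARCAL1 or BTBD16. Apart from H19, the nearest neighbours of the other genes were also not called in edgeR. TOP2A was at −0.07 and SMARCE1 at 0.04 beside IGFBP4, and SPRYD3 at −0.02 beside IGFBP6. The genotypes did not overlap in 11 of the 45 neighbours, beside 22.8% of all tested genes. ARRDC4 (−0.77, adjusted p = 0.0548) and SYNM (0.27, adjusted p = 0.236) beside IGF1R were among the 11. So were CD81 beside IGF2 (−0.45, adjusted p = 0.120) and ADCY1, farther from IGFBP3 (−0.96, adjusted p = 0.0793). DESeq2 called ARRDC4 and ADCY1 lower (adjusted p = 0.0191 and 0.00355). With the replicate block ARRDC4, CD81 and ADCY1 were called lower and SYNM higher.

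**Figure D5:**
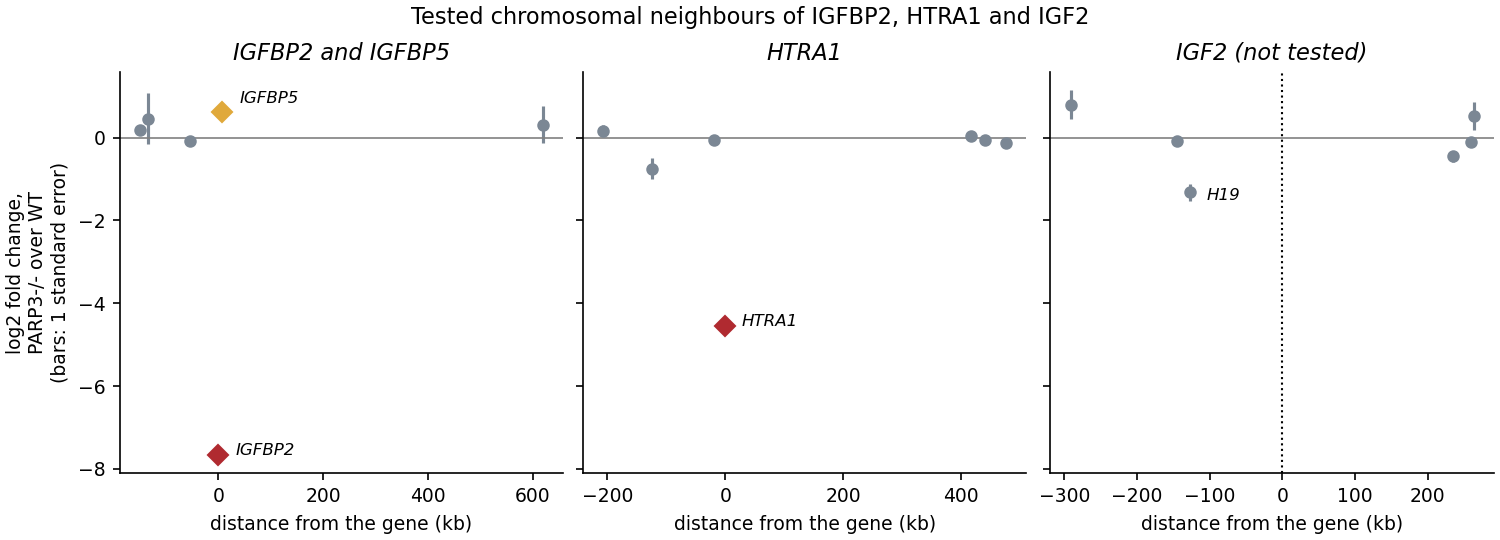
Log2 fold change of PARP3-/- over WT for the tested neighbours of IGFBP2, HTRA1 and IGF2 (grey, bars of 1 standard error) against their distance in kilobases. Diamonds are the genes of the set, and the dotted line marks IGF2, which was not tested. IGFBP2 and HTRA1 lie far below every grey point of their panels.

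Genes with the pattern of levels most like that of IGFBP2 over the 6 libraries, by Pearson correlation of log2 CPM, were PAK5, KCNK5, AC003973.3, STARD8 and ZC4H2 (r from 0.99927 to 0.99953). For HTRA1 they were BOC, SH3KBP1, MCTP2, DTX1 and APBA2 (r from 0.9987 to 0.99908). With 3 libraries a genotype such values mostly follow the step between genotypes, and 154 genes exceeded 0.99 for IGFBP2 and 137 for HTRA1. No IGF axis gene was among these 10.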

How the data were processed

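Ribosomal-RNA-depleted, strand-marked libraries were made from total RNA (the labels name polyA RNA). The submitters' processing notes name bcl2fastq 2.17.1.14, cutadapt 1.10, Bowtie2 2.2.8, STAR 2.5.3a, HTSeq 0.6.1p1 and DESeq2 1.16.1. The deposited raw counts per Ensembl gene on hg38 were used as the authors counted them, in union mode, which leaves out reads shared by several genes. A deposited column of another kind, the median transcript length per gene, served as an alternative length. The table also holds the authors' own comparison (fold changes and p-values), and 12 per-sample columns, which were not used.

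Genotype and replicate number came from the labels. Counts were fitted with edgeR 4.0.16 in R 4.3.3 (quasi-likelihood F test, filterByExpr with a minimum count of 10, TMM, genotype only, all 6 libraries), with Benjamini-Hochberg adjustment over all 17144 tested genes and a call at an adjusted p under 0.05. The standard error was the fold change divided by the square root of F. DESeq2 1.42.0, median-of-ratios scaling, other count filters, a replicate block, a stricter limit and omission of each library were alternatives. Scripts were tested on simulated data. Lengths and coordinates were those of GENCODE on GRCh38 and of the deposited table.

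The genes and the lists were chosen with earlier results of these data known. Genes named were all members, PARP3, every called gene of the lists, up to 3 genes of highest level per group, called and nearest neighbours, and the 5 genes most correlated with IGFBP2 and with HTRA1. Some genes that this rule would name are not reported here. PAPPA, CLU, PTPRZ1, TMEM219 and the genes with few or no counts were added after their values were seen, for their known ties to the members. BGN, LTBP1, ADCY1, SMARCAL1 and BTBD16 were also added after their values were seen.

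The study describes the replicates as biological and from independent experiments, while the labels only number them. Libraries with the same number deviated together from their genotype means (correlations of 0.676, 0.517 and 0.242 over 17144 genes), and pairs of unlike number ranged from −0.628 to 0.410, the highest being WT replicate 2 with PARP3-/- replicate 3. Each correlation within a number exceeded 0.1, the limit set for taking the numbers as pairs. Unlike pairs met that limit too. WT replicate 3 with PARP3-/- replicate 2 (0.264) and WT replicate 2 with PARP3-/- replicate 3 (0.410) both exceeded the pair of number 3 (0.242). The correlations therefore do not show that the numbers pair replicates 2 and 3, and results with the replicate block rest on the numbering of the labels. No pair of libraries agreed within sampling noise. All WT descriptions end in another suffix than all PARP3-/- descriptions, and its meaning is not given, so anything it stands for cannot be told apart from genotype.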

Additional observations from a re-analysis of the deposited data

How the results depend on the processing

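With the replicate block (pairing by replicate number), 4 members, 16 axis genes, 8 neighbours and 2143 of all genes were lower, and 21 axis genes, 3 neighbours and 2023 of all genes higher. With DESeq2, 871 of all genes and 3 neighbours were lower, 475 of all genes and 4 axis genes higher, and 2 members differed by replicate number. Without a filter on low counts, 3 axis genes were higher and 2 neighbours lower, and with a mean count of at least 50, 331 of all genes were lower. Under the stricter limit, 76 of all genes were lower and 6 higher, with 0 axis genes in either direction, 0 neighbours lower and 0 members higher. An adjusted p under 0.001 left 2 members and 1755 of all genes that differed by replicate number. With the deposited median transcript length, IGFBP7 made up 49.0% of the summed level in WT and 50.1% in PARP3-/- cells. Leaving out 1 library at a time gave 2 members lower and 0 to 1 higher, 2 to 6 axis genes lower and 0 to 3 higher, 0 to 3 neighbours lower and 0 higher, 281 to 606 of all genes lower and 49 to 259 higher. For the replicate number the ranges were 2 to 5 members and 4352 to 6527 of all genes. IGFBP7 shares ran from 62.0% to 64.1% in WT and from 68.0% to 69.2% in PARP3-/- cells, and IGF2R over IGF1R from 1.54 to 1.80 and from 1.69 to 1.92. The count of all genes lower was smallest without PARP3-/- replicate 2, and the count higher was smallest without WT replicate 3. The cause of these shifts was not tested, beyond that fewer libraries entered the fits. The fold changes of IGFBP4, IGFBP7, IGF1R and IGF2R, none of them called, changed sign in at least 1 omission of a library, and no called fold change did. Axis genes called were mostly lower without the block and more often higher with it. Genes at a few counts, such as IGF2 and IGFBP1, are limited by depth.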
